A study of Mus musculus with 3 samples.

Results

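The 10 genes described here encode the ligands and receptors of the VEGF and angiopoietin pathways. They were chosen by symbol from the 32285 genes counted in every cell: the ligands *Vegfa*, *Vegfb*, *Vegfc*, *Pgf*, *Angpt1* and *Angpt2*, and the receptors *Flt1*, *Kdr*, *Flt4* and *Tek*. The rule uses their symbols and no level or ratio.

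VEGF ligands are secreted growth factors that bind receptor tyrosine kinases on endothelial cells. VEGF-A and its receptor VEGFR2 (*Kdr*) drive the growth of blood vessels, while VEGF-C and VEGFR3 (*Flt4*) drive the growth of lymphatic vessels. VEGFR1 (*Flt1*) binds VEGF-A, VEGF-B and placental growth factor (*Pgf*) and acts largely as a decoy for VEGF-A. The angiopoietins bind TIE2 (*Tek*): angiopoietin-1 (*Angpt1*) stabilizes vessels, and angiopoietin-2 (*Angpt2*) opposes or substitutes for it depending on the setting. In skeletal muscle the ligands come largely from cells around the vessels and from the muscle fibers.

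The study compared the diaphragm of male mice in 3 groups, all fed for 6 months from young adulthood and each represented by 1 droplet library. WT CD were C57BL/6J mice on control diet, a normal chow. WT HFD were C57BL/6J mice on a high-fat diet (HFD) with 45% of calories from lipid. KO HFD were *Thbs1* knockout mice on the same HFD. The study names small vitamin and mineral differences between the diets and leaves a micronutrient-matched control to future work. The knockout is germline and whole-body, on the C57BL/6J background, and the WT and knockout mice were obtained as separate strains from the same supplier. As the study describes its samples, each library pooled mononuclear cells from costal diaphragms, with 2 mice per group. The labels give collagenase II digestion and the exclusion of dead cells by flow cytometry. Cells were not assigned to animals here. A group is therefore a single sample, and differences between groups carry no replicate check. The question asked of the first comparison, WT HFD against WT CD, is what diet changes, and of the second, KO HFD against WT HFD, what loss of *Thbs1* changes on HFD. The comparisons share the WT HFD library, so a value that is extreme in it moves both.

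The WT CD library held 34312860 UMIs (unique molecular identifiers, 1 per captured mRNA molecule) over 4132 barcodes, the WT HFD library 31967976 over 3774, and the KO HFD library 36478779 over 4369. The median barcode held 7632.5, 8041.5 and 7554 UMIs, respectively. The WT CD library shared 7 barcode sequences with each of the others, the 2 HFD libraries shared 2, and no barcode was found in all 3.

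Cells were clustered without the genes of these pathways, and clusters were named from markers fixed for each class, hence the ending "-like". FAP-like cells (fibro-adipogenic progenitors, the PDGFRα-expressing stromal cells of muscle) numbered 1870, 1631 and 2117 in WT CD, WT HFD and KO HFD. Vascular endothelial-like cells numbered 311, 308 and 258, lymphatic endothelial-like cells 66, 129 and 80, and mesothelial-like cells 40, 86 and 51. The names were given from these same markers, so the marker levels below describe the classes and do not check the names. All 6 lymphatic markers were detected in the lymphatic-like class of each library, led by *Ccl21a* at 8408, 12271 and 12752 CPM (UMIs of the gene per 1000000 UMIs of the class). The 5 mesothelial markers summed to 3709, 3889 and 4094 CPM in the mesothelial-like class, led by *Upk3b*. The mesothelial-like cells also held *Dcn* at 9480, 10136 and 9265 CPM but *Pdgfra* at no more than 28.7 CPM.

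The knocked-out gene itself was still counted in KO HFD. *Thbs1* (ENSMUSG00000040152, chr2:118111876-118127133, plus strand) gave 207, 239 and 241 CPM in FAP-like cells of WT CD, WT HFD and KO HFD, and 25.9, 41.4 and 74.3 CPM in mesothelial-like cells. It gave 35.2, 9.05 and 37.4 CPM in vascular-like cells and 84.1, 37.6 and 66.5 CPM in lymphatic-like cells. KO HFD was above WT HFD by 1.79 (1.13 to 2.86) in the mesothelial-like, 4.13 (2.07 to 8.94) in the vascular-like and 1.77 (1.07 to 2.94) in the lymphatic-like class, and by 1.01 (0.966 to 1.06) in FAP-like cells. Within FAP-like cells the order varied, with KO HFD the highest library in 3 of 6 clusters and the lowest in 1. The latter, the *Krtdap* cluster, gave 62.9, 81.0 and 42.8 CPM in the 3 libraries. The chemistry reads the 3′ end of a transcript, so a count can persist where a deletion lies elsewhere in the gene, and these values do not check the genotype. The genotype of the library labelled KO HFD therefore rests on its label.

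The receptors *Flt1* and *Flt4* divided by vessel type, whereas *Kdr* and *Tek* were found in both endothelia. Since a UMI counts 1 molecule read at its 3′ end, levels of different genes are compared below without a correction for length. Classes are ordered only among the 10 with at least 20 cells in every library. The 240 bases upstream of *Flt1*, *Kdr* and *Tek*, the receptors with the most UMIs in vascular-like cells, are given here because these 3 genes share that class. They run from 250 to 11 bases before the RefSeq start (build GRCm38.p6), in the direction of transcription. Capitals mark GGAA or its reverse complement TTCC, the core of the site bound by ETS factors, a family active in endothelium. The *Flt1* window is chr5:147726022-147726261 (minus strand), the *Kdr* window chr5:75978466-75978705 (minus strand) and the *Tek* window chr4:94739039-94739278 (plus strand).
Flt1: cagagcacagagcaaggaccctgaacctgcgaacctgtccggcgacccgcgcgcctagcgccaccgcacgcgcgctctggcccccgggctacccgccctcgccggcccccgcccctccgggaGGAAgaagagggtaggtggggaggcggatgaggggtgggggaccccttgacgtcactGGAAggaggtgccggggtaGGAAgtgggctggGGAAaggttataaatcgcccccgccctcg
Kdr: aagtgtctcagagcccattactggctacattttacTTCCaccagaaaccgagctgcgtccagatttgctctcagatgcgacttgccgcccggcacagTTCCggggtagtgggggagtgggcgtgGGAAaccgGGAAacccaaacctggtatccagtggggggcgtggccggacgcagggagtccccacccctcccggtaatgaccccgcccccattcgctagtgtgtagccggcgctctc
Tek: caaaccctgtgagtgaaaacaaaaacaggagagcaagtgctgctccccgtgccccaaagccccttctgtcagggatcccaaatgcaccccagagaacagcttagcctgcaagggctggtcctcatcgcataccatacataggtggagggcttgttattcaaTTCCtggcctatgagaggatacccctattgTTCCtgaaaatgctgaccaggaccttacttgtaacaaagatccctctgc
The core occurred 4 times in the *Flt1* window, 4 times in the *Kdr* window and 2 times in the *Tek* window, counting both strands. Of 32851 promoter windows of the same length, 92.7% held it at least 1 time and 30.5% at least 4 times, so these counts are common. ACGTG or its reverse complement CACGT, the core of the hypoxia response element, was in none of the 3 windows and in 15.9% of all windows. Of the 10 genes, 8 had an entry in the promoter table used.

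*Flt1* (ENSMUSG00000029648, chr5:147561604-147726011, minus strand) had the highest level of the 10 genes in any of these classes, in vascular-like cells. It stood at 1628 CPM (95% counting interval 1556 to 1702) in WT CD, 1605 (1534 to 1677) in WT HFD and 1263 (1195 to 1333) in KO HFD. The KO HFD library was the lowest and its interval did not meet the others. Among the remaining classes with at least 20 cells in every library, the highest value was 18.3 CPM, in T- or NK-like cells, and lymphatic-like cells reached 11.1 CPM. With single cells gated on marker UMIs instead of clusters, lymphatic cells gave 6.88, 20.6 and 24.2 CPM of *Flt1* from 3, 18 and 14 UMIs. Vascular-like cells carried 94.0, 89.7 and 87.9% of all *Flt1* UMIs in the 3 libraries.

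*Kdr* (ENSMUSG00000062960, chr5:75932827-75978458, minus strand) was shared by both endothelia. Vascular-like cells held 688 CPM (642 to 737) in WT CD, 801 (751 to 853) in WT HFD and 605 (559 to 655) in KO HFD. Lymphatic-like cells held 357 (300.2 to 421), 524 (477 to 575) and 393 (342 to 450.0) CPM. In both classes WT HFD was the highest library, and the lowest vascular value lay above the highest lymphatic value. Mesothelial-like cells came next at 21.6 (10.3 to 39.7), 87.0 (69.2 to 108) and 136 (107 to 170) CPM, and FAP-like cells followed with 11.6 to 16.5 CPM.

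*Flt4* (ENSMUSG00000020357, chr11:49609263-49652739, plus strand) marked the lymphatic-like cells, at 403 CPM (342 to 471) in WT CD, 569 (519 to 622) in WT HFD and 445 (391 to 505) in KO HFD. Vascular-like cells followed at 36.03, 32.9 and 40.2 CPM, values whose intervals overlapped. FAP-like cells gave 2, 4 and 1 UMIs in all, and mesothelial-like cells none, which with the floor of 3 UMIs per library allows up to 6.47, 3.18 and 5.43 CPM in WT CD, WT HFD and KO HFD. *Flt4* and *Kdr* were found together in 66.7, 78.3 and 76.3% of lymphatic-like cells, and in 9.32, 8.44 and 12.0% of vascular-like cells, which are shallower.

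*Tek* (ENSMUSG00000006386, chr4:94739289-94874976, plus strand) was also found outside the endothelium. Vascular-like cells held 213, 210 and 196 CPM and lymphatic-like cells 96.9, 122 and 142 CPM in WT CD, WT HFD and KO HFD. FAP-like cells held 35.4, 43.9 and 38.1 CPM and, being numerous, carried 60.0, 56.8 and 62.1% of all *Tek* UMIs. MuSC-like cells (muscle stem cells) followed at 10.5 to 15.9 CPM. The 4 classes did not overlap in their range over libraries. In mesothelial-like cells *Tek* was found as 0, 3 and 0 UMIs.

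**Figure D1:**
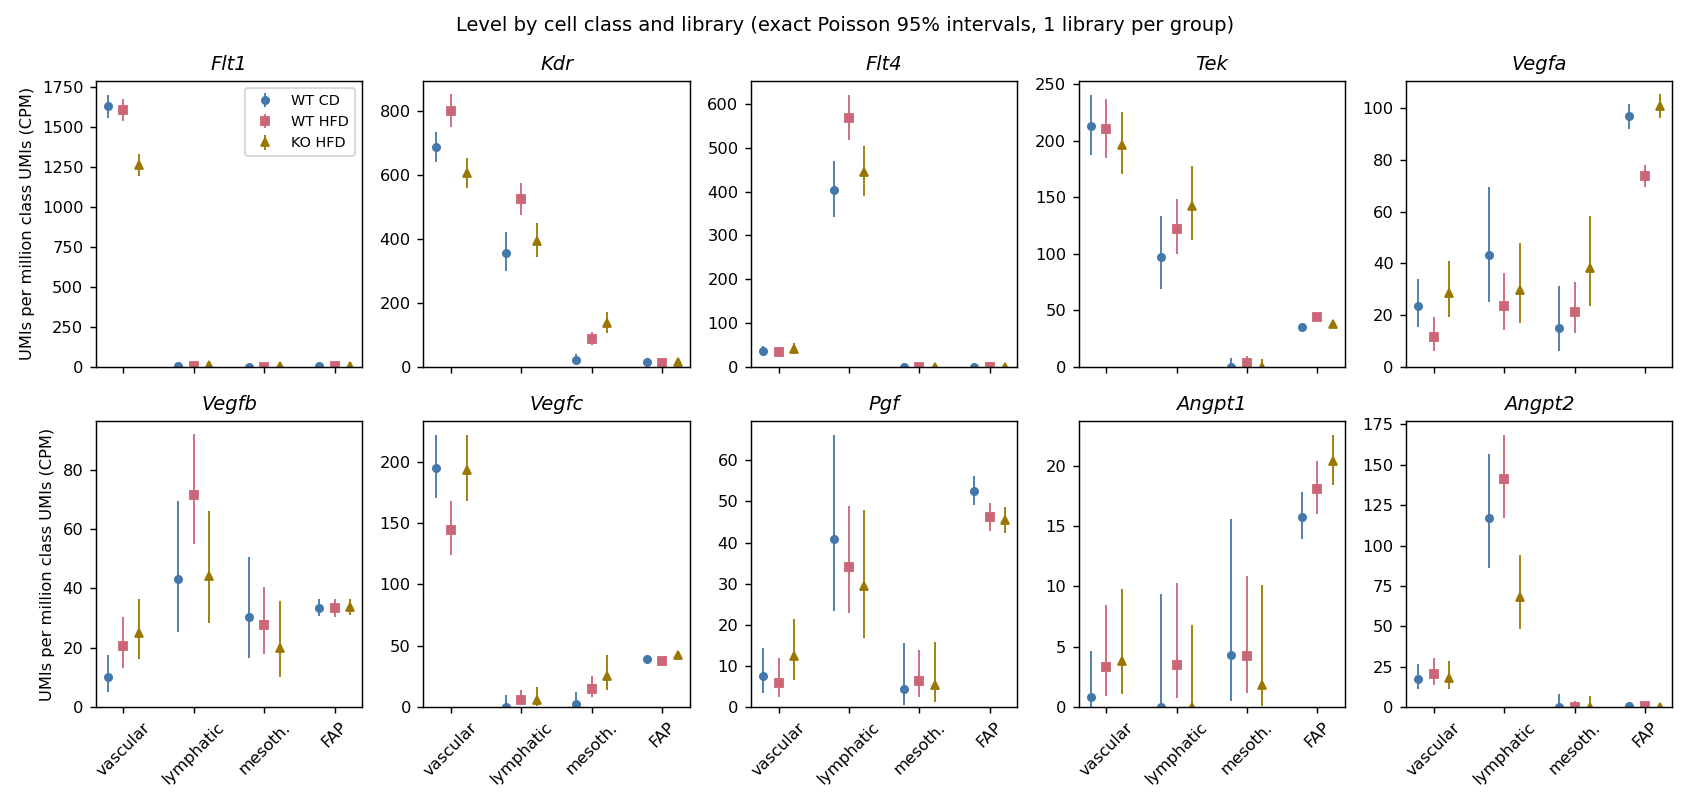
Level of each of the 10 genes (CPM) in 4 cell classes, 1 point per library, with exact Poisson 95% intervals that cover counting error only. *Flt1* is high in vascular-like cells, *Flt4* in lymphatic-like cells, *Kdr* in both endothelia with a lower mesothelial level of 21.6 to 136 CPM, and *Vegfa* is highest in FAP-like cells.

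The ligands divided differently. For each but *Angpt2*, most UMIs counted in these mononuclear cells were in FAP-like cells. By level among the ordered classes, *Vegfb* and *Angpt2* were highest in lymphatic-like cells and *Vegfc* in vascular-like cells. For *Vegfb*, the counting intervals of lymphatic-like and FAP-like cells were apart in WT HFD only. *Vegfa* (ENSMUSG00000023951, chr17:46016993-46032369, minus strand) was highest in FAP-like cells among the ordered classes, at 96.9 CPM (92.2 to 102) in WT CD, 73.7 (69.5 to 78.1) in WT HFD and 101 (96.3 to 106) in KO HFD. WT HFD was the low library, and its interval met neither of the others. FAP-like cells carried 75.8, 70.6 and 75.6% of all *Vegfa* UMIs. MuSC-like cells followed at 29.4 to 50.4 CPM. Among smaller classes, tenocyte-like cells (23, 20 and 19 cells) gave 130 (36 UMIs), 39.5 (8 UMIs) and 121 CPM (30 UMIs), and neutrophil-like cells (13, 19 and 25 cells) 394 (11 UMIs), 133 (5 UMIs) and 51.8 CPM (3 UMIs). Myofiber-like cells (6, 26 and 23 cells) gave 204, 18.7 and 82.4 CPM from 4, 4 and 14 UMIs. They are mononuclear cells led by *Myog* and *Actc1*, with MuSC markers as the second-ranked set, so these are not values of muscle fibers. Vascular-like cells gave 28, 14 and 30 UMIs, or 23.5, 11.5 and 28.7 CPM, with WT HFD again the lowest. FAP markers in that class, led by *Dcn* and all 4 detected, summed to 1151, 744 and 1533 CPM in the same order of libraries, and their part in the vascular values of *Vegfa* was not tested.

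*Pgf* (ENSMUSG00000004791, chr12:85166635-85177790, minus strand) stood at 52.5, 46.2 and 45.5 CPM in FAP-like cells and at 40.8, 34.1 and 29.6 CPM in lymphatic-like cells, from 16, 29 and 16 UMIs. It was at 5.76 to 12.5 CPM in vascular-like cells. With single cells gated on marker UMIs, vascular cells gave 1.93, 20.3 and 9.70 CPM of *Pgf* from 2, 23 and 9 UMIs, another order of libraries. *Vegfb* (ENSMUSG00000024962, chr19:6982473-6987651, minus strand), which binds VEGFR1 but not VEGFR2, was spread more evenly. FAP-like cells held 33.5, 33.3 and 33.8 CPM, with overlapping intervals. Lymphatic-like cells held 43.3 (17 UMIs, 25.2 to 69.4), 71.7 (61 UMIs, 54.8 to 92.1) and 44.3 CPM (24 UMIs, 28.4 to 66.0). In WT CD and KO HFD these intervals overlapped those of FAP-like cells.

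*Vegfc* (ENSMUSG00000031520, chr8:54077606-54187096, plus strand) had its highest level in vascular-like cells. They held 195 CPM (171 to 222) in WT CD, 145 (124 to 168) in WT HFD and 194 (168 to 222) in KO HFD, and FAP-like cells 39.6, 37.6 and 42.3 CPM. By number of UMIs the order was the other way, with 61.2, 58.6 and 66.1% of *Vegfc* UMIs in FAP-like cells and 22.3, 18.0 and 17.2% in vascular-like cells. Lymphatic-like cells, where its receptor *Flt4* was highest, gave 0, 5 and 3 *Vegfc* UMIs. The floor of 3 UMIs allows up to 7.65 CPM in WT CD, and the levels in WT HFD and KO HFD were 5.87 and 5.54 CPM.

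The angiopoietins were in different classes. *Angpt1* (ENSMUSG00000022309, chr15:42424723-42676977, minus strand) was highest in FAP-like cells among the ordered classes, at 15.8 (13.9 to 17.9), 18.1 (16.1 to 20.4) and 20.4 (18.4 to 22.6) CPM in WT CD, WT HFD and KO HFD. Those cells carried 78.0, 78.2 and 79.3% of its UMIs. The few mural-like cells gave 71.7, 10.3 and 68.4 CPM from 5, 2 and 11 UMIs. *Angpt2* (ENSMUSG00000031465, chr8:18690263-18741562, minus strand) was highest in lymphatic-like cells, at 117 (85.9 to 156), 141 (117 to 169) and 68.3 (48.1 to 94.2) CPM. Vascular-like cells held 17.6, 20.6 and 18.2 CPM of *Angpt2*, and FAP-like cells less than 1 CPM in each library.

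Within the vascular-like class, finer clusters separated arterial-like (led by *Gja5* and *Gja4*), capillary-like (led by *Car4*) and venous-like cells (led by *Lrg1*). The arterial-like cluster held 399 cells, the capillary-like 313 and the venous-like 165, and the median cell held 3722, 3107 and 1384 UMIs, respectively. *Kdr* was a gene of the capillary-like cells, at 1392, 1546 and 1221 CPM in WT CD, WT HFD and KO HFD. Arterial-like cells held 426, 421 and 367 CPM of it and venous-like cells 294, 309 and 211. *Vegfc* was highest in the arterial-like cells, at 289, 305 and 360 CPM in arterial-like cells, 38.3, 13.8 and 27.5 in capillary-like and 67.1, 20.9 and 35.2 in venous-like cells. *Angpt2* was at 38.3, 48.4 and 36.6 CPM in capillary-like cells and no higher than 15.1 CPM elsewhere in the class.

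*Flt1* and *Tek* differed less between segments. *Flt1* was at 1635, 1576 and 1401 CPM in arterial-like, 1798, 1905 and 1361 in capillary-like and 1099, 1124 and 739 in venous-like cells. *Tek* ranged from 161 to 225 CPM over the 9 pairs of segment and library. The clusters were formed without these genes but from genes that vary with them, so the order of segments is a description.

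The makeup of the vascular-like class differed between libraries. Arterial-like cells were 54.3% of it in WT CD, 37.3% in WT HFD and 44.6% in KO HFD, and capillary-like cells 31.2, 40.3 and 35.7%. The lower *Vegfc* level of the whole class in WT HFD was not present in the arterial-like cells, where WT HFD (305 CPM) lay between WT CD and KO HFD, but WT HFD had the lowest value in the capillary-like cells (13, 6 and 9 UMIs in WT CD, WT HFD and KO HFD) and the venous-like cells (8, 5 and 7 UMIs). These counts are too few to order the libraries. For *Flt1* and *Kdr*, KO HFD was the lowest library in all 3 segments.

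**Figure D2:**
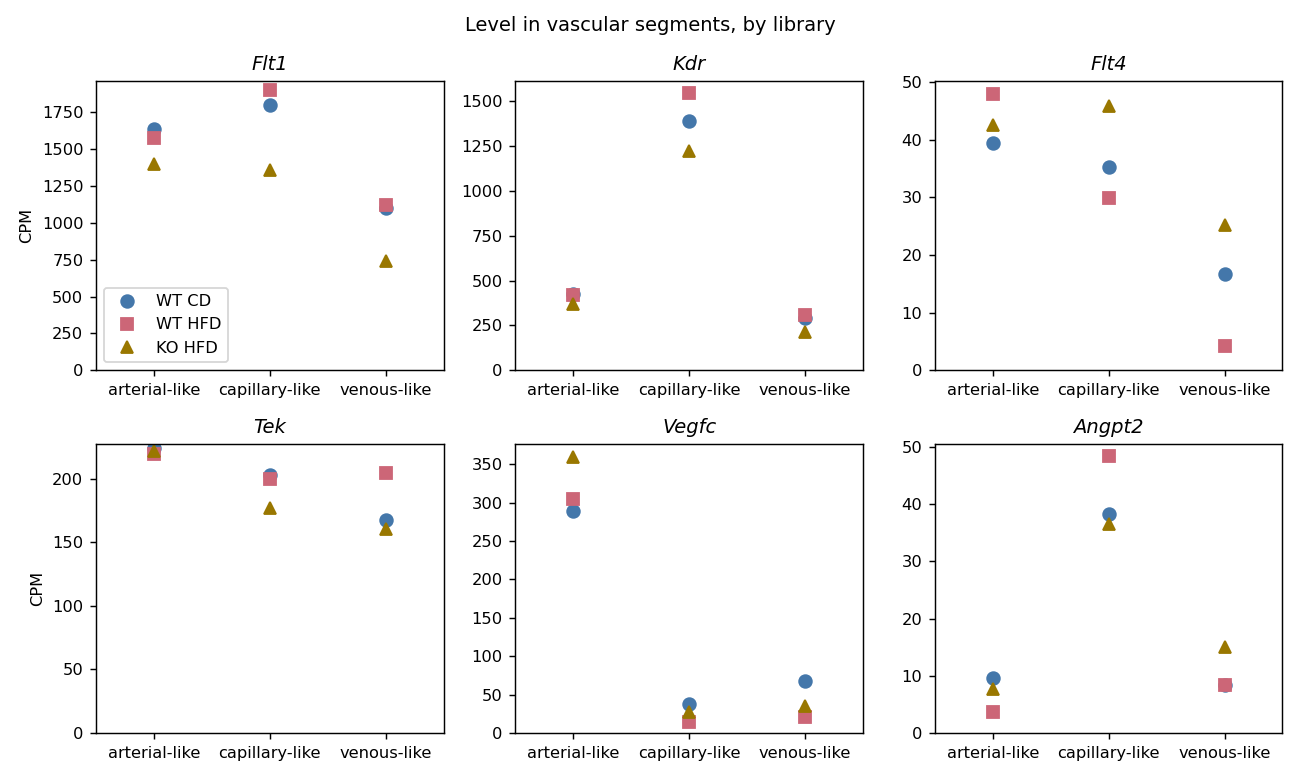
Level (CPM) of 6 genes in arterial-like, capillary-like and venous-like clusters of the vascular-like class, 1 point per library. *Kdr* is highest in capillary-like cells (1221 to 1546 CPM) and *Vegfc* in arterial-like cells (289 to 360 CPM). The KO HFD points of *Flt1* and *Kdr* are the lowest in each segment, and the segments share that library.

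FAP-like cells formed 6 clusters, called here by their leading gene, and the 10 genes were unevenly spread over them. *Vegfa* was at 131, 84.7 and 159 CPM in the *Sult1e1* cluster (532 cells), the highest cluster in WT CD and KO HFD, and at 106, 96.5 and 121 CPM in the *Cxcl14* cluster, the highest in WT HFD. It was lowest in the *Avpr1a* cluster (1057 cells), at 61.2, 42.9 and 59.0 CPM. *Pgf* was highest in the *Myoc* cluster (1126 cells), at 104, 86.1 and 87.5 CPM, and was at 7.45 to 14.3 CPM in the *Gdf10* cluster (1030 cells). *Angpt1* was at 22.3, 37.2 and 36.6 CPM in the *Sult1e1* cluster and at 6.23, 6.04 and 11.3 CPM in the *Krtdap* cluster (560 cells).

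The *Avpr1a* cluster, which also expresses *Sfrp2*, stood apart in 3 of the genes. It held *Kdr* at 68.1, 69.7 and 80.2 CPM, whereas the other FAP-like clusters held 0 to 12.2 CPM. It held *Vegfc* at 93.7, 111 and 125 CPM, above the 38.5 CPM that no other FAP-like cluster exceeded. *Tek* was nearly missing from it, at 2.21, 2.23 and 2.28 CPM, but was at 89.7, 93.5 and 99.4 CPM in the *Krtdap* cluster. In the *Avpr1a* cluster 34.4% of cells had a *Kdr* UMI, and 1.14% did in the *Cxcl14* cluster (1313 cells). A *Sfrp4*, *Dio2* and *Cilp* cluster with FAP markers (988 cells) stayed unnamed and is not among these clusters. That cluster held *Kdr* at 12.5, 8.89 and 5.32 CPM and *Vegfc* at 31.0, 39.3 and 44.4 CPM in WT CD, WT HFD and KO HFD.

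**Figure D3:**
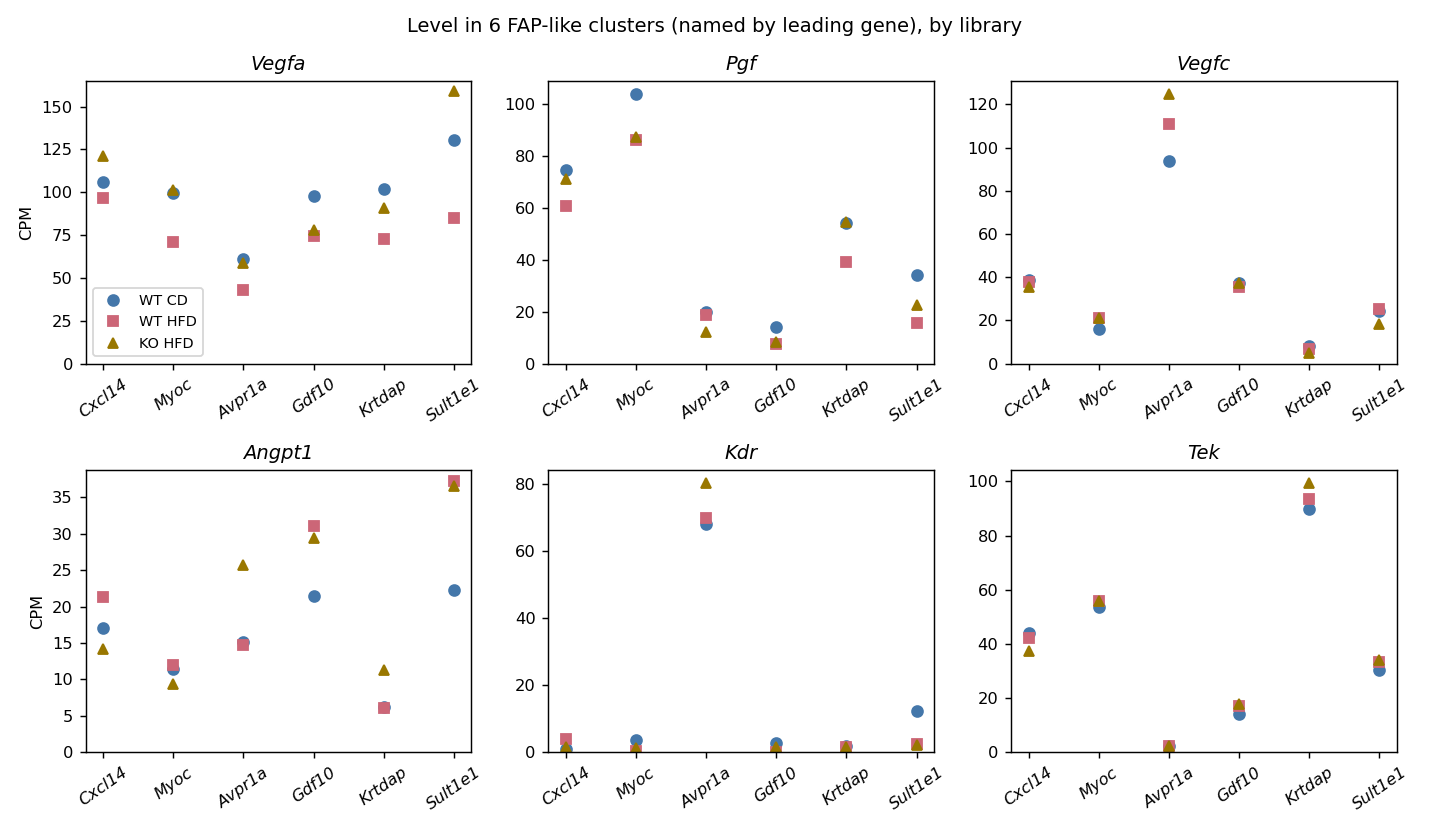
Level (CPM) of 6 genes in the 6 FAP-like clusters, named by their leading gene, 1 point per library. *Kdr* and *Vegfc* peak in the *Avpr1a* cluster, *Tek* in the *Krtdap* cluster and *Pgf* in the *Myoc* cluster, and the WT HFD point of *Vegfa* is the lowest in every cluster.

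With diet, 16 of the 40 pairs of gene and class could be compared, and 2 of them differed by at least 1.5-fold, both higher in WT HFD. A pair was compared where 1 library reached 20 CPM and the 2 libraries held 50 UMIs together. The pairs past 1.5-fold were *Kdr* in mesothelial-like cells and *Vegfb* in lymphatic-like cells. None of the 5 genes compared in FAP-like cells and none of the 5 in vascular-like cells passed 1.5-fold, where 1.48% (0.741% higher, 0.741% lower) and 8.94% (5.1% higher, 3.84% lower) of all genes compared did. In lymphatic-like cells 1 of 5 did, against 17.4% of all genes (15.3% higher, 2.11% lower), a share near the background. In mesothelial-like cells it was 1 of 1, against 13.9% (9.4% higher, 4.51% lower).

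*Kdr* in mesothelial-like cells was the widest diet difference among the 16. It came from 10 UMIs in WT CD and 82 in WT HFD, or 21.6 and 87.0 CPM, a ratio of 4.04 (95% counting interval 2.09 to 8.73). The UMIs were spread over cells, with 8 of 40 cells holding a *Kdr* UMI in WT CD (20%, exact interval 9.05 to 35.6%) and 39 of 86 in WT HFD (45.3%, 34.6 to 56.5%). After every cell was thinned to 3000 UMIs, the shares were 10.3% and 23.5%, with overlapping intervals. In B-cell-like cells, which should lack *Kdr*, 0.993% of 705 cells had a UMI. Their median depth was 8384 UMIs, and that of the mesothelial-like cells 10511 in WT CD and 10218.5 in WT HFD. The 6 vascular endothelial markers summed to 6.47, 14.9 and 16.3 CPM in the mesothelial-like class of WT CD, WT HFD and KO HFD, the same order of libraries as *Kdr*. Of them 3, 5 and 3 were detected, none above 5.43 CPM, and *Cdh5* was at 0 in each library. The 6 lymphatic markers summed to 6.47, 6.37 and 0 CPM. *Flt4* and *Angpt2* were at 0 in the 3 libraries, and *Flt1* gave 0, 0 and 3 UMIs. The part of these transcripts in the *Kdr* ratio was not tested.

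*Vegfb* in lymphatic-like cells was at 43.3 CPM in WT CD (17 UMIs) and 71.7 in WT HFD (61 UMIs), a ratio of 1.65 whose interval of 0.953 to 3.02 included 1. *Kdr* and *Flt4* in the same cells were higher in WT HFD by 1.47 (1.21 to 1.79) and 1.41 (1.18 to 1.70), short of the 1.5-fold limit. Both passed it with single cells gated on marker UMIs (1.55 and 1.56) and were at 1.21 and 1.15 with each cell weighted alike. The sum of the class's own 6 markers was also higher in WT HFD, at 13032 and 18295 CPM. Among them *Ccl21a* was higher (8408 and 12271 CPM), whereas *Clca3a1* (441 and 403) and *Reln* (591 and 579) were lower. FAP markers in this class summed to 515 and 886 CPM. The part of these in the ratios was not tested. *Angpt2* there went from 1.20 (0.849 to 1.73) to 1.57 with each cell weighted alike. The median log2 ratio of all 3599 genes compared in this class was 0.15. *Vegfa* in FAP-like cells was lower in WT HFD, by 1.31-fold (log2 ratio -0.39, ratio 0.761, 0.704 to 0.822). It was the lowest library in 6 of 6 FAP-like clusters, which share the library. *Tek* in FAP-like cells had a ratio of 1.24 (1.11 to 1.39), but 1.04 when the 6 clusters were weighted alike. The *Krtdap* cluster, where *Tek* is highest, made up 7.70% of FAP-like cells in WT CD and 13.7% in WT HFD.

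Between the HFD libraries, 18 pairs were compared and 3 passed 1.5-fold. *Kdr* in mesothelial-like cells was higher in KO HFD, and *Angpt2* and *Vegfb* in lymphatic-like cells were lower. None of 6 genes passed in FAP-like cells and none of 6 in vascular-like cells. Of all genes compared, 0.705% did in the first class (0.412% higher, 0.292% lower) and 9.09% in the second (4.11% higher, 4.98% lower). In lymphatic-like cells 2 of 5 passed, against 12.9% of all genes (4.2% higher, 8.72% lower), and in mesothelial-like cells 1 of 1, against 10.6% (4.6% higher, 6.02% lower).

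*Angpt2* in lymphatic-like cells was the widest of these differences. It was at 141 CPM in WT HFD (120 UMIs in 44 of 129 cells) and 68.3 in KO HFD (37 UMIs in 18 of 80 cells), a ratio of 0.485 (0.326 to 0.706), or 2.06-fold lower. In WT HFD 1 cell held 26 of these UMIs (21.7%), and in KO HFD 1 cell held 8 (21.6%). In WT CD, which does not enter this ratio, 1 cell held 23 of the 46 UMIs. With each cell weighted alike the ratio was 0.652. FAP markers summed to 515, 886 and 2361 CPM in the lymphatic-like class of WT CD, WT HFD and KO HFD, with all 4 detected and *Dcn* the most abundant. FAP-like cells themselves held under 1 CPM of *Angpt2*, and the part of the FAP transcripts in this ratio was not tested. *Vegfb* in the same cells was at 71.7 and 44.3 CPM, a ratio of 0.619 (0.369 to 1.01).

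*Kdr* in mesothelial-like cells was at 136 CPM in KO HFD (75 UMIs) against 87.0 in WT HFD, a ratio of 1.56 (1.13 to 2.16). A *Kdr* UMI was present in 30 of 51 KO HFD cells (58.8%, 44.2 to 72.4%). The class differed in another way between these libraries. The 6 macrophage markers summed to 349, 333 and 14.5 CPM in WT CD, WT HFD and KO HFD, led in the WT libraries by *Lyz2*, whose UMIs came from 5 and 3 cells, and *C1qa*, *Mrc1*, *Adgre1* and *Itgam* were at 0 in KO HFD. Its part in the *Kdr* ratio was not tested.

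In vascular-like cells *Flt1* and *Kdr* were lower in KO HFD by 1.27-fold (ratio 0.787, 0.733 to 0.844) and 1.32-fold (0.756, 0.683 to 0.837), and *Vegfc* was higher by 1.34 (1.09 to 1.64). The class's own 6 markers summed to 7342, 7326 and 6429 CPM in WT CD, WT HFD and KO HFD, each of the 6 being lower in KO HFD than in WT HFD, with *Cdh5* at 1089 and 913 CPM in those libraries. Lymphatic markers in this class summed to 12.6, 159 and 71.8 CPM in WT CD, WT HFD and KO HFD, led by *Ccl21a* in WT HFD, and 2, 6 and 5 of the 6 were detected. FAP markers there were lowest in WT HFD, as *Vegfc* was. The part of any of these lists in these ratios was not tested. *Flt4* in vascular-like cells had a ratio of 1.22 (0.774 to 1.93), but 1.86 with each cell weighted alike. In FAP-like cells *Vegfa* was higher in KO HFD by 1.37 (1.27 to 1.48). The remaining genes of that class, *Vegfb*, *Vegfc*, *Pgf*, *Angpt1* and *Tek*, had ratios from 0.868 to 1.13.

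**Figure D4:**
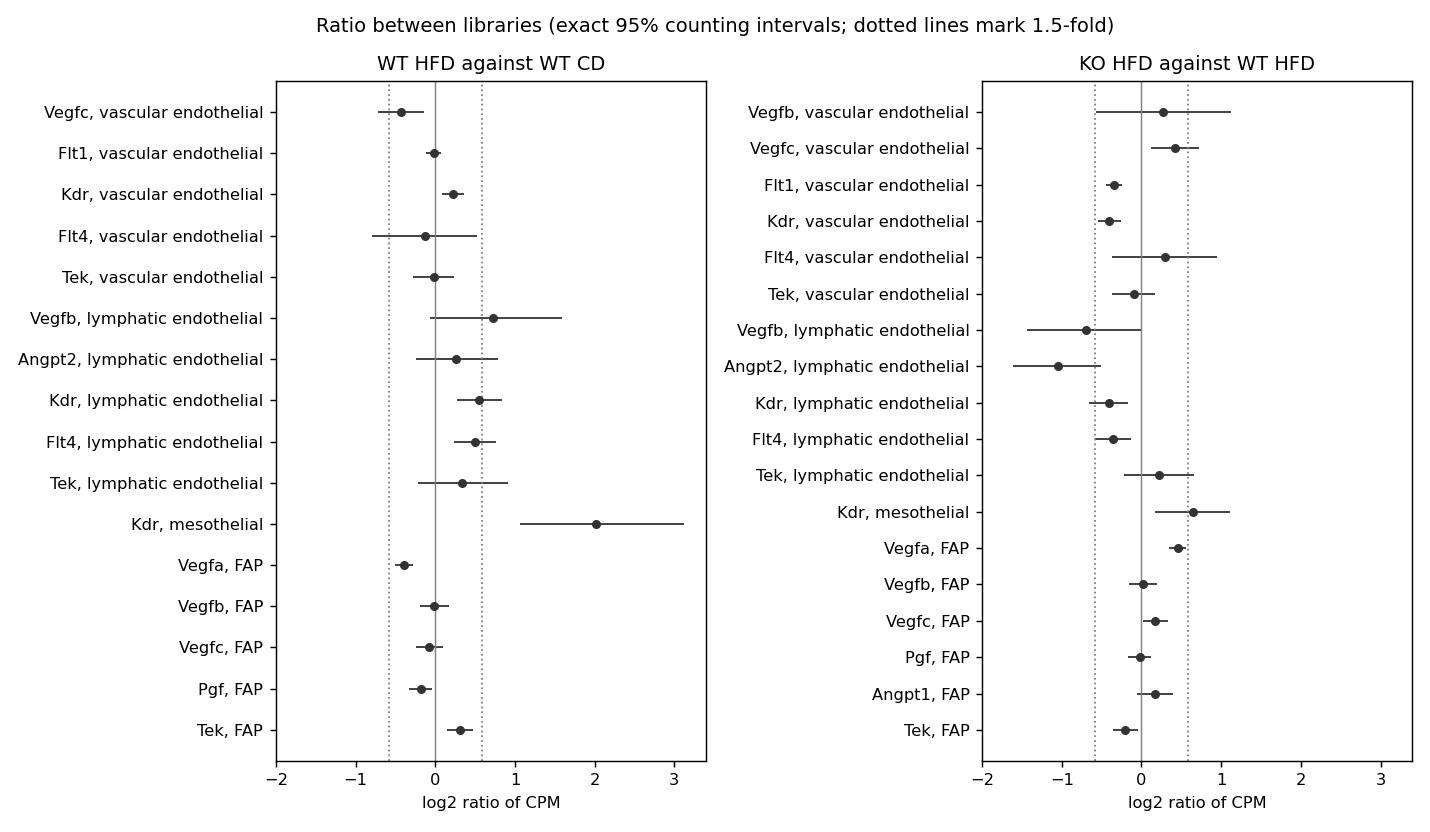
Log2 ratio of CPM between libraries for each gene and class that could be compared, with exact 95% counting intervals that carry no replicate error. Points beyond the dotted lines differ by 1.5-fold or more: 2 of 16 for WT HFD against WT CD, and 3 of 18 for KO HFD against WT HFD.

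The list of co-receptors and regulators of these pathways held 9 genes, of which 3 were compared in FAP-like, 4 in vascular-like, 3 in lymphatic-like and 0 in mesothelial-like cells. In vascular-like cells *Nrp2*, a co-receptor for VEGF-C, was the 1 gene past 1.5-fold, at 77.1 CPM in WT CD and 148 in WT HFD (ratio 1.92, 1.49 to 2.498), where 8.94% of all genes passed. Lymphatic markers in that class summed to 12.6 and 159 CPM in these libraries and venous-like cells were 14.5 and 22.4% of it, and their part in the *Nrp2* ratio was not tested. In lymphatic-like cells *Ptprb*, the phosphatase that restrains TIE2, was at 117, 176 and 102 CPM, past 1.5-fold in both comparisons (ratios 1.503 and 0.576). *Nrp2* there was at 344, 402 and 266 CPM, lower in KO HFD (ratio 0.662). That made 1 of 3 for diet and 2 of 3 for KO HFD, where 17.4% and 12.9% of all genes passed. FAP markers in the lymphatic-like class summed to 515, 886 and 2361 CPM in the 3 libraries. Their part in the ratios of that class, here and in the lists below, was not tested. In FAP-like cells none passed. *Svep1* was at 184, 222 and 234 CPM, *Ccbe1*, which helps to process VEGF-C, at 46.0, 54.4 and 65.6 CPM, and *Nrp1* at 46.4, 60.4 and 58.2 CPM.

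Of 16 genes of signalling below the receptors, 9 were compared in FAP-like cells and none passed 1.5-fold in either comparison. *Grb10*, *Nck1* and *Foxo1* were the most abundant there, at 103, 83.8 and 64.6 CPM in their highest library. None of 12 and none of 11 passed in vascular-like cells, where *Rasip1* held 222 to 297 CPM, *Nck1* 227 to 249 and *Ptk2* 96.8 to 113. In mesothelial-like cells *Akt1* was higher in WT HFD than in WT CD (ratio 1.53, 0.875 to 2.83) and *Foxo1* lower in KO HFD than in WT HFD (0.335, 0.158 to 0.647), each 1 of 7 compared, near the shares of all genes in that class (13.9% and 10.6%). In lymphatic-like cells *Plcg1* (0.512) and *Pik3ca* (0.636) were lower in KO HFD, 2 of 11, where 12.9% of all genes passed, and none of 10 passed for diet. FAP markers there summed to 886 CPM in WT HFD and 2361 in KO HFD.

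Genes known to respond to VEGF were mixed in direction. In vascular-like cells 9 of the 13 were compared, with a median log2 ratio of -0.28 for diet beside 0.01 for all 5649 genes. *Esm1*, a tip cell gene, was at 47.8 CPM in WT CD and 24.7 in WT HFD (ratio 0.517), and *Egr3* at 87.1, 54.3 and 90.0 CPM in the 3 libraries (0.623 and 1.66). *Rcan1*, a calcineurin inhibitor, was higher in WT HFD (1.89), and *Aplnr* was lower in KO HFD (0.471). That made 3 of 9 for diet and 2 of 9 for KO HFD, where 8.94% and 9.09% of all genes passed. Arterial-like cells were 54.3, 37.3 and 44.6% of the class in WT CD, WT HFD and KO HFD. In the same order, lymphatic markers in it summed to 12.6, 159 and 71.8 CPM and neutrophil markers to 0.838, 118 and 0.958 CPM. The part of these in the ratios and the median was not tested. In lymphatic-like cells *Egr3* (0.333), *Rcan1* (0.624) and *Plvap* (0.634) were lower and *Mmp14*, a membrane metalloproteinase, was higher (2.51) in WT HFD, 4 of 7 compared, where 15.3% of all genes were higher and 2.11% lower. *Mmp14* was also higher in WT HFD in FAP-like cells (84.4 and 128 CPM, ratio 1.52, 1 of 3, where 1.48% of all genes passed) and in mesothelial-like cells (1.503, 0.882 to 2.67, 1 of 1, where 13.9% passed). Against WT HFD it was lower in KO HFD in lymphatic-like (0.616, 0.430 to 0.869, 1 of 6) and mesothelial-like cells (0.618, 0.356 to 1.03, 1 of 1), where 12.9% and 10.6% of all genes passed.

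Of 14 hypoxia genes, 11 were compared in vascular-like cells. *Hif1a* (1.52) and *Pgk1* (1.53), a glycolytic enzyme, were higher in WT HFD than in WT CD, *Adm*, which encodes adrenomedullin, was lower (0.585), and none of 11 passed in KO HFD against WT HFD. Of all genes 8.94% and 9.09% passed in these comparisons. The 4 neutrophil markers in the vascular-like class summed to 0.838, 118 and 0.958 CPM in WT CD, WT HFD and KO HFD, led by *S100a9* at 69.1 CPM in WT HFD where all 4 were detected, and their part in the vascular ratios was not tested. *Adm* was also lower in WT HFD in lymphatic-like cells (0.535, 1 of 7), where 17.4% of all genes passed (15.3% higher, 2.11% lower). In FAP-like cells *Adm* was at 216, 164 and 246 CPM in WT CD, WT HFD and KO HFD, and its ratio of 1.501 in KO HFD against WT HFD (1.43 to 1.58) was the 1 of 9 past 1.5-fold, where 0.705% of all genes passed. Other members of the list differed in order: *Hif1a* was at 57.1, 82.0 and 70.4 CPM, *Pgk1* at 69.2, 84.9 and 75.1 and *Ldha* at 188, 228 and 225, each highest in WT HFD. The list's median log2 ratio for diet was 0.15 in these cells, beside 0.09 for all genes. *Bnip3* in mesothelial-like cells (0.640, 0.350 to 1.12) was lower and *Ankrd37* in lymphatic-like cells (1.69, 0.957 to 3.01) higher in KO HFD, 1 of 8 and 1 of 9, where 10.6% and 12.9% of all genes passed.

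Over 30 profiles (10 classes in 3 libraries), levels were compared between genes on the log2(CPM + 1) scale. Of 10700 genes, those nearest *Flt1* were *Tcf15* (Pearson r = 0.948), *Aqp7* (0.940) and *C1qtnf9* (0.938). For *Kdr* they were *Adgrf5* (0.937), *C130074G19Rik* (0.936) and *Efna1* (0.933), for *Flt4* *Klhl4* (0.986), *Gpr182* (0.969) and *Cda* (0.960), and for *Tek* *Ramp2* (0.914), *Tspan18* (0.914) and *Sncaip* (0.903). For *Angpt2* they were *Slfn3* (0.954), *Gpr182* (0.946) and *Mall* (0.945). The other ligands had weaker matches, led by *Btg3* for *Vegfc* (0.880), *Tshz2* for *Pgf* (0.840), *Larp6* for *Angpt1* (0.832), *Prrx1* for *Vegfa* (0.807) and *Grina* for *Vegfb* (0.762). Profiles of 1 library share its depth and handling, so these values describe the profiles only.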

How the data were processed

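The 3 libraries were made with the 10x Genomics 3′ v3.1 chemistry. The authors aligned and counted with Cell Ranger (6.1.1 in the submitters' processing notes, 6.1.0 in the file headers; build mm10) and deposited whole-number UMI counts per gene and barcode, without normalization, for barcodes called as cells. All 12275 barcodes were kept here, with doublets left in (1.26, 1.09 and 1.33% by Scrublet in WT CD, WT HFD and KO HFD). Repeated rows of 1 symbol were summed.

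Counts were scaled to 10000 per cell and logged. The 2000 most variable genes, less 28 genes of the pathway lists, gave 30 principal components, 15 neighbours and 28 Leiden clusters (resolution 1, seed 0) in scanpy 1.11.5. A cluster was named where the mean log2 ratio of a marker set reached 1, with 3 markers in at least 10% of cells, and its 10 leading genes did not favour another class. These thresholds were set while clusters were examined, and 11.4, 11.6 and 8.97% of cells stayed unnamed, among them a *Sfrp4*, *Dio2* and *Cilp* cluster with FAP markers. Cell classes were rebuilt and need not match those of the study.

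Levels are CPM of summed UMIs with exact Poisson 95% intervals, ratios carry exact conditional binomial intervals and shares Clopper-Pearson intervals, all for counting error only. With 1 library per group no test was made. Interval code was tested on simulated data. Positions follow GENCODE release M21 on GRCm38 and promoter windows RefSeq. The genes named were the 10 members, *Thbs1*, listed genes past 1.5-fold (otherwise the 3 most abundant), the genes most like each member (of which the text gives all 3 for receptors and *Angpt2* and the first for the rest) and markers, with *Hif1a*, *Pgk1* and *Ldha* in FAP-like cells added after their values were seen. The members and lists were chosen with earlier results of these data known. Tools were Python 3.11.15, numpy 2.4.6, scipy 1.17.1, scikit-learn 1.9.0, leidenalg 0.10.2, matplotlib 3.10.9, R 4.3.3 and edgeR 4.0.16, the last for TMM scaling of class sums as an alternative.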

Additional observations from a re-analysis of the deposited data

How the results depend on the processing

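The 34 ratios of the 10 genes were recomputed under 12 alternatives, 2 of them chosen after seeing the data (FAP-like cells with the *Sfrp4*, *Dio2* and *Cilp* cluster, and without the *Avpr1a* cluster). Ratios of the partner, signalling, VEGF-response and hypoxia genes were not recomputed, so calls close to 1.5-fold among them carry no such check. An alternative changed the ratio in 285 of 408 cases, since some do not touch every class. In 275 of the 285 the ratio stayed within the counting interval of the reported value, and none past 1.5-fold turned direction. Several ratios short of 1.5-fold crossed 1. Among them, *Vegfc* in FAP-like cells went from 0.950 to 1.09 for diet with clusters weighted alike. *Tek* in lymphatic-like cells went from 1.26 to 0.990 for diet with each cell weighted alike. For KO HFD, *Vegfb* in vascular-like cells went from 1.21 to 0.976 with doublets removed, and *Pgf* in FAP-like cells from 0.984 to 1.12 with clusters weighted alike. *Flt4* in vascular-like cells went from 1.22 to 1.86 for KO HFD with each cell weighted alike, past 1.5-fold. The count of pairs past 1.5-fold for WT HFD against WT CD went from 2 to 4 with single cells gated on marker UMIs (adding *Kdr* and *Flt4* in lymphatic-like cells) and to 13 without a filter on low counts, and for KO HFD against WT HFD from 3 to 14 without that filter, because pairs of a few UMIs then enter. The *Kdr* ratio in mesothelial-like cells ran from 3.47 to 4.22 for diet and from 1.52 to 1.66 for KO HFD, and that of *Angpt2* in lymphatic-like cells from 0.465 to 0.652. Thinning removes UMIs, so lower shares of cells follow from the method. For *Vegfa* in FAP-like cells the shares were 42.1, 40.0 and 42.3% before thinning and 23.0, 18.1 and 21.0% after it. No paired analysis was possible because each group is 1 library, and for the same reason no library could be left out. The mesothelial-like class, with 463715 to 942098 UMIs per library, and the lymphatic-like class, with 392260 to 851106, held the fewest UMIs of the classes compared.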

Other observations

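Mural-like cells, the contractile cells around small vessels, numbered 17, 30 and 27 in WT CD, WT HFD and KO HFD, too few for the order of classes. They held *Angpt1* at 71.7, 10.3 and 68.4 CPM from 5, 2 and 11 UMIs, and *Vegfc* at 14.3, 138 and 56.0 CPM from 1, 27 and 9 UMIs. *Flt1* there was at 28.7, 472 and 112 CPM, and the 6 vascular endothelial markers summed to 71.7, 2127 and 634 CPM in the same cells, led by *Ly6c1* in the HFD libraries. Their part in the *Flt1* and *Vegfc* values, which had the same order of libraries, was not tested.

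*Apln*, which encodes the ligand apelin, was below the minimum of 50 UMIs in mesothelial-like cells and was singled out after its values were seen. It gave 2, 11 and 35 UMIs in WT CD, WT HFD and KO HFD, or 4.31, 11.7 and 63.4 CPM, a ratio of 5.43 (95% counting interval 2.70 to 11.9) between the HFD libraries. *Kdr* in the same cells had the same order of libraries.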
